A study of Homo sapiens with 16 samples.

Results

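Untreated SUM159, a human triple-negative breast cancer line, was compared with untreated A549, a human lung adenocarcinoma line, to describe the expression programmes on which the drug experiment was built. The libraries were chosen by their labels (SUM159 UT and A549 UT, R1 and R2 of each), which gave 4 of the 16 libraries of the series. The other 12 libraries came from the same lines after 16 h with 2 µM palbociclib, an inhibitor of CDK4 and CDK6, with 3 µM indisulam, which removes the splicing factor RBM39 through DCAF15, or with both. A549 was grown in RPMI with 10% serum, 1% penicillin and streptomycin and 2 mM glutamine, and SUM159 in DMEM/F12 with 10% serum, 1% penicillin and streptomycin, 5 µg/ml insulin and 1 µg/ml hydrocortisone. Every difference below is therefore a difference between line and medium together, which cannot be told apart. The duplicates are technical and each tissue is represented by 1 line. All 16 libraries entered the fit, so p-values measure only the spread between duplicates of the untreated and treated groups.

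Carcinoma lines keep parts of the programme of the tissue they came from and lose others. Epithelial cells are held together by cadherins, claudins and desmosomes under the control of factors such as GRHL2, OVOL1 and ESRP1, whereas mesenchymal cells make fibrillar matrix under factors such as ZEB2, SNAI2 and TWIST1. A549 is known for a stabilised NRF2, the transcription factor that drives antioxidant and detoxification genes, and SUM159 is known as a line with few epithelial features.

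Gene counts per untreated library lay between 18306636 and 21994527, so that 3 counts corresponded to 0.136 to 0.175 CPM (counts scaled to library size with TMM normalisation). Duplicates differed by more than sampling noise (chi-square per degree of freedom 2.27 in A549 and 9.13 in SUM159) and were counted as separate libraries. The mitochondrial share of gene counts was 6.73% and 7.28% in A549 and 3.44% and 1.83% in SUM159, and its part in the results was not tested. In a principal component analysis of all 16 libraries the component that separated the lines held 87.5% of the variance, against 4.12% and 3.74% for the next components.

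The line difference reached most of the transcriptome. Of 17764 genes tested with edgeR's quasi-likelihood test (Benjamini-Hochberg adjusted p under 0.05), 16996 were autosomal and are described here. Of these, 76.2% passed, with 6396 (37.6% of the autosomal genes) higher and 6554 (38.6%) lower in SUM159. With a difference of at least 2-fold as a further condition, 2730 (16.1%) were higher and 3648 (21.5%) lower, and these calls are the ones counted from here on unless stated otherwise. The counts of every list below are to be read beside these 2 shares. At least 8-fold differences were called for 1252 genes higher and 1658 lower in SUM159. The libraries of the lines did not overlap for 87.4% of genes, so absence of overlap alone set little apart. The median difference over all autosomal genes was -0.03 on the log2 scale and the median absolute difference 0.73. Among the 7955 genes with at least 10 CPM in all 4 libraries, 85.5% lay within 2-fold or were not called, with 582 called higher and 570 lower. Long non-coding RNAs passed more often (51.3% of 2398) than protein-coding genes (35.2% of 13525), and unprocessed pseudogenes more often still (57.5% of 87). Processed pseudogenes passed less often (24.3% of 366). These classes were not matched for expression level.

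**Figure D1:**
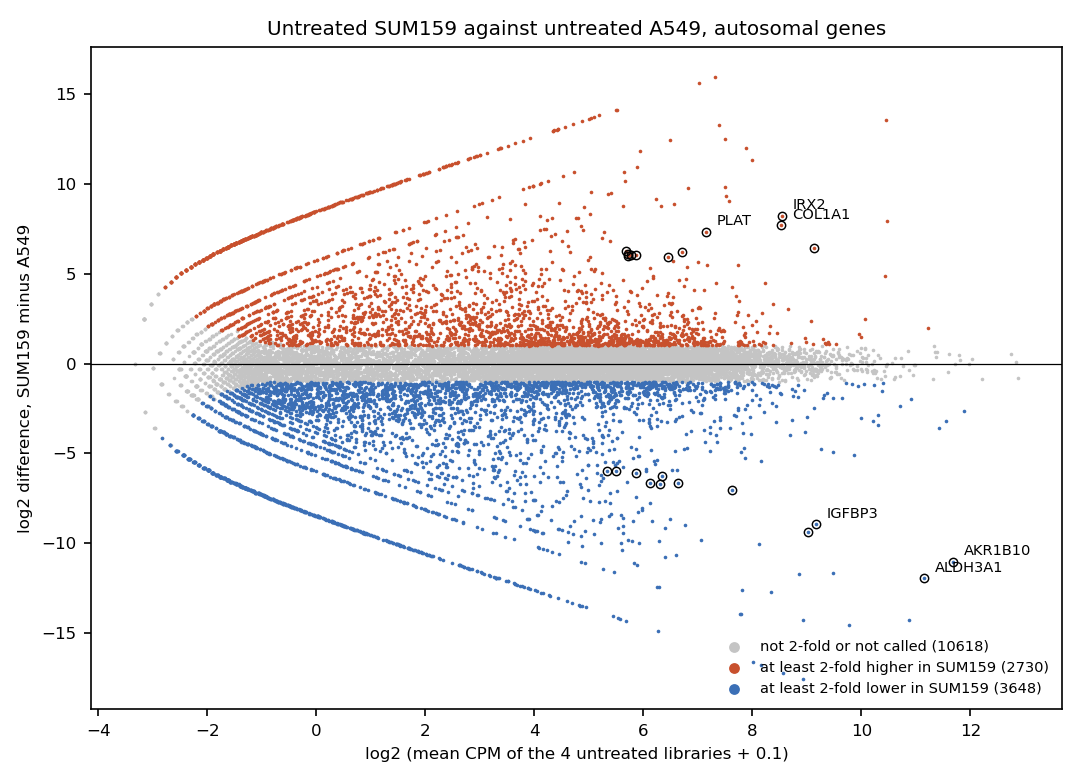
Log2 difference between untreated SUM159 and untreated A549 (vertical axis) against the log2 of the mean CPM of the 4 libraries plus 0.1 (horizontal axis), 1 point per autosomal gene tested. Orange points are the 2730 genes called at least 2-fold higher in SUM159, blue points the 3648 called lower, circles 23 of the 24 largest differences. The curved outer rows of points are genes at or near 0 counts in 1 line, whose fitted difference depends on the prior count.

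The largest differences among genes measured above 1 CPM in every library started at 60.8-fold on the SUM159 side and 62.4-fold on the A549 side. IRX2, an Iroquois homeobox transcription factor, stood at 1.97 and 2.97 CPM in A549 and 745 and 739 CPM in SUM159, a log2 difference of 8.24 ± 0.084 (SE; 302-fold). PLAT, the tissue plasminogen activator, was at 1.39 and 2.1 CPM in A549 and 284 and 283 CPM in SUM159 (7.35 ± 0.0876). Both genes were low in A549 and high in SUM159, and absence of overlap between libraries was a condition of the selection. COL1A1, the main chain of type I collagen, was at 3.42 and 3.56 CPM in A549 and 734 and 740 CPM in SUM159 (7.72 ± 0.0753). ANPEP, the membrane aminopeptidase CD13, was at 13.1 and 12.6 CPM against 1116 and 1091 CPM. Others among the 12 were the proteoglycan enzyme DSEL, the aldehyde oxidase AOX1, the teneurin TENM3, the guidance ligand SLIT2, COL16A1, the serpin SERPINB5 and the synaptic scaffold PCLO, and the 12 spanned 60.8-fold to 302-fold.

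In the opposite direction ALDH3A1, an aldehyde dehydrogenase, stood at 4643 and 4435 CPM in A549 and at 1.13 CPM in both SUM159 libraries, a log2 difference of -11.96 ± 0.0812. AKR1B10, an aldo-keto reductase, was at 6680 and 6508 CPM against 3.13 and 3.22 CPM (-11.02 ± 0.0933). Per kilobase of exon, AKR1B10 was the higher of the pair in A549, with a mean of 3719 RPKM against 1171 RPKM for ALDH3A1. AGR2, a disulfide isomerase of secretory epithelia, was at 1058 and 1014 CPM in A549 and 1.5 and 1.63 CPM in SUM159. IGFBP3, which binds insulin-like growth factors, was at 1158 and 1127 CPM against 2.45 and 2.22 CPM. NOTCH3, a Notch receptor, was at 406 and 381 CPM against 3.45 and 2.45 CPM. These genes were abundant in A549 and between 1.13 and 3.45 CPM in SUM159. LINC02582, the RNA-binding protein gene IGF2BP1, RHOF, MLPH, the hexokinase gene HKDC1, ZNF385A and CNTNAP3B completed the 12, which spanned 62.4-fold to 3987-fold. RHOF shares exon sequence on its strand with LINC01089, and CNTNAP3B has close paralogues, so their counts are uncertain.

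**Figure D2:**
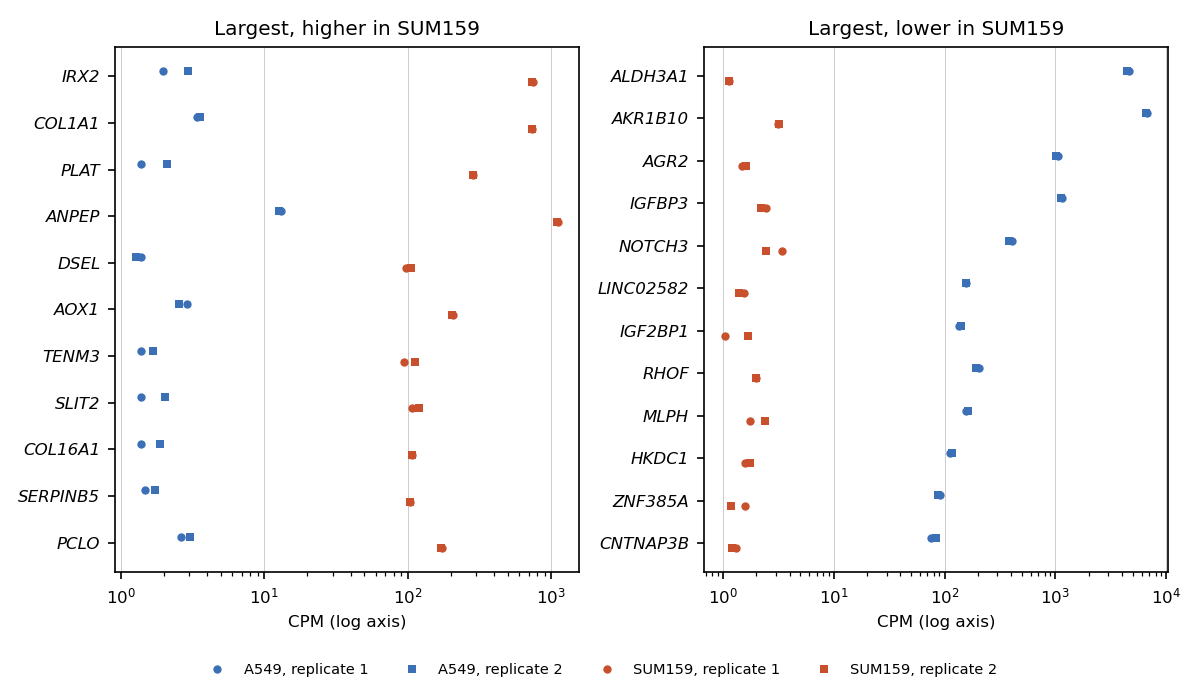
CPM (log axis) of 11 of the 12 largest differences with SUM159 higher and the 12 largest with SUM159 lower, 1 point per library: circles replicate 1, squares replicate 2, blue A549, orange SUM159. In every row the libraries of each line lie close together. The lines lie apart by the rule of selection, from 1.39 to 284 CPM for PLAT and from 4643 to 1.13 CPM for ALDH3A1.

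Epithelial junction genes were lower in SUM159. Of 34 members, 32 were tested, 29 were at least 2-fold lower and 0 were higher in SUM159, with a median log2 difference of -3.94 against -0.03 for all genes. CDH1, E-cadherin, stood at 81.6 and 83.5 CPM in A549 and 0.136 and 0.317 CPM in SUM159 (-8.48 ± 0.144). EPCAM, the epithelial cell adhesion molecule, was at 27 and 25.2 CPM against 0.0907 and 0.408 CPM. SPINT2, a membrane protease inhibitor, was at 128 and 121 CPM against 0.635 and 0.317 CPM. Each was near the detection limit in SUM159. DSC2, a desmosomal cadherin, was at 24.2 and 25.4 CPM in A549 and had no count in SUM159, while its partner DSG2 stood at 325 and 335 CPM against 204 and 216 CPM, a difference of -0.65 ± 0.043 that stayed under 2-fold. JUP, plakoglobin, was at 373 and 349 CPM against 65.4 and 62.4 CPM. CLDN12 differed least among the claudins tested, at 53.4 and 52.7 CPM against 47.3 and 46.2 CPM, and it shares exon sequence with neighbours. CLDN6 was at or under 0.0907 CPM in all 4 libraries and was not tested.

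The factors that keep epithelial genes on followed the same direction, with 12 of 14 at least 2-fold lower in SUM159, 0 higher and a median of -4.72. ELF3, an epithelial ETS factor, stood at 118 CPM in both A549 libraries and at 0 and 0.0907 CPM in SUM159. FOXA1, a pioneer factor of luminal and endodermal epithelia, was at 50.9 and 50.3 CPM against 1.77 and 2.04 CPM. KLF5 was at 194 CPM in both A549 libraries and at 55.5 and 53 CPM in SUM159. TFCP2L1 was the tested member without a difference that passed, at 8.59 and 7.05 CPM against 8.3 and 7.25 CPM. The E-box CAGGTG, searched on both strands, is bound by ZEB and SNAI repressors. Promoter windows from RefSeq (GRCh38.p14, 250 bases before to 50 after a start) were listed for 18 junction genes, and the E-box was present in 14 of their 25 windows (56%), against 20.6% of all 35116 windows. Of the 13 junction genes with it 11 were lower, and of the 5 without it 4 were lower. For the 7 epithelial factors with windows it was in 4 of 10 (40%), and 3 of 4 factors with it and 2 of 3 without it were lower.

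Mesenchymal genes went the other way. Of 32 members, 31 were tested, 24 were at least 2-fold higher and 1 lower in SUM159, with a median log2 difference of 2.36. The repressors ZEB2 and SNAI2 stood at 0.961 and 1.46 CPM and at 0.267 and 0.291 CPM in A549, against 44.8 and 44.5 CPM and 57.5 and 58 CPM in SUM159. PRRX1, a mesenchymal homeobox factor, was at 0 and 0.0583 CPM against 18.5 and 18.3 CPM. These factors were at or under 1.46 CPM in A549, whereas ZEB1 was present in both lines, at 35.9 and 38.1 CPM against 58.7 and 63.1 CPM (0.72 ± 0.0607). VIM, vimentin, was already abundant in A549, at 961 and 955 CPM, and reached 3897 and 3754 CPM in SUM159 (2.00 ± 0.0387). SPARC, a matricellular protein, was at 0.213 and 0.175 CPM against 509 and 505 CPM, and THY1 at 0.16 and 0.291 CPM against 100 and 97.3 CPM. ACTA2, smooth muscle actin, was the member at least 2-fold lower, at 8.59 and 7.69 CPM in A549 and 2.99 and 2.67 CPM in SUM159.

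Matrix genes differed in both directions. Of 44 members 43 were tested, 25 were higher and 10 lower in SUM159, with a median of 2.06. COL6A3, the long chain of type VI collagen, stood at 0.16 and 0.291 CPM in A549 and 2583 and 2981 CPM in SUM159. COL5A1, a fibrillar collagen chain, was at 0.427 and 0.699 CPM against 356 and 370 CPM, and DCN, the proteoglycan decorin, had no count in A549 and 44.6 and 48.9 CPM in SUM159. The adhesive glycoproteins THBS1 and TNC were at 88.5 and 94.7 CPM and at 9.71 and 10.7 CPM in A549, against 2657 and 2721 CPM and 194 and 216 CPM. Each of these was higher in SUM159 with no overlap between the libraries, a trait of 87.4% of all genes. The members lower in SUM159 included the basement membrane chains COL4A3 (20.7 and 24.2 CPM against 0.181 and 0.0453 CPM) and LAMA5 (470 and 459 CPM against 91 and 93.7 CPM), the proteoglycan VCAN (828 and 1048 CPM against 62.2 and 69.4 CPM) and osteopontin, SPP1 (922 and 935 CPM against 0.181 and 0.363 CPM). LAMB3, a laminin chain, was at 79.5 and 76.7 CPM in A549 and at 188 and 199 CPM in SUM159.

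Integrins, the receptors of these proteins, also went both ways, with 7 of 17 tested members higher, 5 lower and a median of 0.49. ITGA5, the fibronectin receptor chain, stood at 63.7 and 59.6 CPM in A549 and 602 and 609 CPM in SUM159 (3.29 ± 0.0511). ITGB3 was at 0.107 and 0.0583 CPM against 11.1 and 12.3 CPM. ITGB4, the hemidesmosomal chain, was at 776 and 768 CPM against 49.2 and 49.4 CPM (-3.97 ± 0.062), and the epithelial chain ITGB6 at 15.1 and 13.6 CPM against 0.454 and 0.181 CPM. ITGB1, the chain that most integrins share, was at 1678 and 1642 CPM against 715 and 747 CPM.

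Keratins were not simply lost from SUM159. Of 15 tested members 5 were higher and 6 lower, with a median of 0.28. KRT8 and KRT18, the pair of simple epithelia, stood at 5457 and 5308 CPM and at 5071 and 4998 CPM in A549, against 582 and 597 CPM and 419 and 426 CPM in SUM159. KRT19 was at 113 and 109 CPM against 0.181 and 0.317 CPM. KRT7 was of like abundance in both lines, at 1535 and 1503 CPM against 1876 CPM in both SUM159 libraries (0.30 ± 0.0393). The stress keratin KRT6A was at 0.16 and 0.175 CPM against 15 CPM in both SUM159 libraries, and the basal keratins KRT5, KRT14 and KRT17 were higher in SUM159 but between 0.635 and 1.41 CPM. Reads of near-identical keratin copies could have been divided between them.

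**Figure D3:**
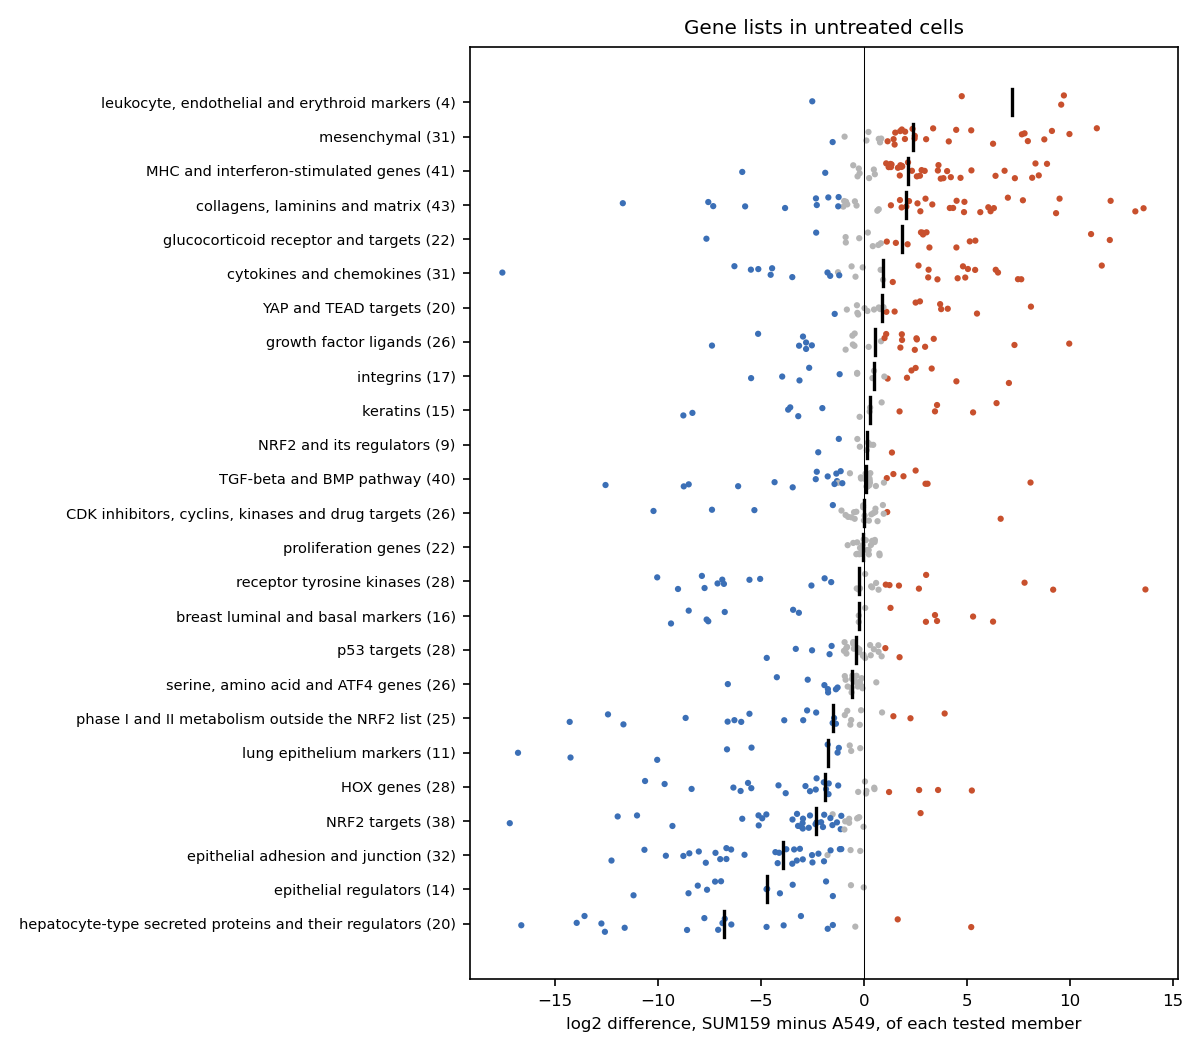
Log2 difference, SUM159 minus A549, of every tested member of the 25 gene lists, with the number tested in brackets. Orange points were called at least 2-fold higher in SUM159, blue points lower, grey points neither, and the black bar is the list's median, from -6.82 for the hepatocyte-type list to 2.36 for the mesenchymal list and 7.17 for 4 tested leukocyte and endothelial genes. Points beyond about 10 in either direction include genes with 0 counts in a line.

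The tissue labels were checked against their markers. Of 24 lung epithelium markers only 11 passed the filter, 8 of them lower in SUM159 and 0 higher. The lineage factor NKX2-1 was at 0.107 and 0.0583 CPM in A549, the surfactant genes SFTPA1, SFTPA2 and SFTPB and the secretoglobins SCGB1A1, SCGB3A1 and SCGB3A2 had no count there, and SFTPC stood at 0.16 and 0 CPM. The most abundant markers were those of mucous cells. MUC5AC and MUC5B, the gel-forming airway mucins, stood at 489 and 620 CPM and at 562 and 586 CPM in A549, against 0.59 and 0.453 CPM and 0 in SUM159, and CEACAM6 at 983 and 976 CPM against 0 and 0.0907 CPM. The lipid transporter ABCA3 was at 77 and 75.4 CPM against 1.5 and 1.95 CPM. Thus NKX2-1, the surfactant genes and the secretoglobins named were at or near 0 in A549, whereas ABCA3, which alveolar type II cells also use, was present.

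For SUM159 the receptors that define the triple-negative class were examined. ESR1, the oestrogen receptor, had no count in A549 and stood at 0.363 and 0.408 CPM in SUM159, and PGR had no count in any of the 4 libraries. ERBB2 was present in both lines, at 114 and 109 CPM in A549 and 92.5 and 95.6 CPM in SUM159 (-0.25 ± 0.0457). Of 21 breast markers 16 were tested, 6 higher and 7 lower in SUM159. GATA3, a luminal factor, was at 0.587 and 0.641 CPM against 4.67 and 5.3 CPM, and TP63 at 6.99 and 7.05 CPM against 18.2 and 16.2 CPM. FOXC1 and TRIM29, often used as basal markers, were higher in A549, at 111 and 106 CPM and 39.2 and 40.3 CPM, than in SUM159, at 13.3 and 11 CPM and 3.63 and 3.67 CPM. The luminal markers SPDEF, TFF1, TFF3 and AGR2 were all lower in SUM159. Breast markers therefore did not set SUM159 above A549 as a group (median -0.25).

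Markers of blood and vessel cells were measured as well. Of 13 markers 4 were tested, and the summed level of all 13 was 7.58 and 6.41 CPM in A549, mostly CD14, and 51.9 and 48.8 CPM in SUM159. PTPRC, the leukocyte phosphatase CD45, had no count in A549 and stood at 3.76 and 3.94 CPM in SUM159. LAPTM5 was at 0 and 0.0583 CPM against 28.1 and 27.1 CPM, and PECAM1 at 0.587 and 0.699 CPM against 18.4 and 16.5 CPM. The lymphoid markers CD3E and CD79A, the endothelial markers CDH5, VWF and TIE1, and the globins HBA1, HBA2 and HBB were each at or under 0.181 CPM in all 4 libraries. In bulk RNA a few cells of another type and a low level in every cell cannot be told apart.

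Genes of the hepatocyte programme were lower in SUM159. Of 30 members 20 were tested, 17 were lower and 2 higher in SUM159, with a median log2 difference of -6.82. The fibrinogen chains FGA, FGB and FGG, blood clotting proteins, stood at 508 and 521 CPM, 442 and 437 CPM and 454 and 442 CPM in A549 and at or under 0.0907 CPM in SUM159. HNF4A, a nuclear receptor that directs hepatocyte genes, was at 23.1 and 21.3 CPM against 0.227 and 0.0907 CPM. CPS1, the entry enzyme of the urea cycle, was at 463 and 480 CPM against 30.2 and 33 CPM (-3.90 ± 0.0476). The programme was partial, since ALB, APOA1, APOB, TTR, TF and SERPINA3 were at or under 0.107 CPM in all 4 libraries. SERPINA1 was higher in SUM159, at 6.03 and 5.89 CPM against 19.3 and 17.9 CPM, as was APOC3, with no count in A549 and 0.181 CPM in both SUM159 libraries.

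Targets of NRF2 were lower in SUM159. All 38 members were tested, 28 were at least 2-fold lower and 1 higher, with a median of -2.33, and their summed level was 43685 and 42841 CPM in A549 against 9049 and 9090 CPM in SUM159. GPX2, a glutathione peroxidase, had 771 and 749 CPM in A549 and no count in SUM159, at least 5586-fold lower when 3 counts per library are taken as the limit. Upstream sequence of 3 targets is shown because the antioxidant response element core TGACNNNGC, which NRF2 binds with a small MAF partner, fell within it. Of 27 targets with RefSeq windows, 10 of 35 windows (28.6%) held the core on either strand, against 13.3% of all windows. Of the 9 targets with the core 7 were lower, and of the 18 without it 14 were lower. The 200 bases before the start are written 5′ to 3′ on the gene's strand (GRCh38.p14), with the core in capitals:
GPX2 (chr14:64942746-64942945, minus strand): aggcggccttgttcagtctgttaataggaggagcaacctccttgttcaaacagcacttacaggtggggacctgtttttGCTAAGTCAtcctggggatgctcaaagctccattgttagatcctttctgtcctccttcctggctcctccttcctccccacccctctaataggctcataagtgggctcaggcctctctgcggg
GCLM (chr1:93909431-93909630, minus strand): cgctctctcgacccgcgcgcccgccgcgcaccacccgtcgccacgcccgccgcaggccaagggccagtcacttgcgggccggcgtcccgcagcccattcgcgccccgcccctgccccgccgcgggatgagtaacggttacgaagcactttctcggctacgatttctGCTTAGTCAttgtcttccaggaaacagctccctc
ME1 (chr6:83431052-83431251, minus strand): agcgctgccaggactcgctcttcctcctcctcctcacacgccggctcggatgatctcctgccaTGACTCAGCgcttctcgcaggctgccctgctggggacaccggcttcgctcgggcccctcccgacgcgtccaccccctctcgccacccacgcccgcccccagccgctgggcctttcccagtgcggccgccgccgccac
These 3 genes differed in size of effect. GCLM, the modifier subunit of glutathione synthesis, was at 278 and 279 CPM in A549 and 130 and 131 CPM in SUM159 (-1.10 ± 0.0499), and ME1, malic enzyme, at 172 and 165 CPM against 142 and 136 CPM (-0.28 ± 0.0428). A match to the core therefore went with differences from under 2-fold to complete absence of counts.

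By role, the quinone reductase NQO1 stood at 2185 and 2112 CPM in A549 and 231 and 237 CPM in SUM159 (-3.20 ± 0.0501). The thioredoxin reductase TXNRD1 was at 3088 and 3028 CPM against 760 and 779 CPM. The pentose phosphate enzyme PGD was at 1827 and 1798 CPM against 219 and 220 CPM, and the cystine transporter SLC7A11 at 377 and 420 CPM against 76.3 and 85.5 CPM. The aldo-keto reductases AKR1C1, AKR1C2 and AKR1C3 were 4.74 to 5.11 lower on the log2 scale, with the reservation that reads of these near-identical genes could be exchanged. For iron storage, FTL was at 6595 and 6405 CPM against 1050 and 1071 CPM, while FTH1 was at 3399 and 3353 CPM against 3319 and 3323 CPM. HMOX1, haem oxygenase, was the member higher in SUM159, at 19.5 and 18.5 CPM against 128 CPM in both libraries (2.75 ± 0.0554). SRXN1 was at or under 0.175 CPM in all 4 libraries and shares exon sequence on its strand with another annotated gene, and reads that fall in shared exons were set aside by the counting as ambiguous (5.09% to 5.34% in the 4 libraries).

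The genes of the NRF2 pathway itself differed less than its targets. NFE2L2, which encodes NRF2, stood at 126 and 131 CPM in A549 and 140 and 143 CPM in SUM159, and KEAP1, its inhibitor, at 87.4 and 74.5 CPM against 69.6 and 71.7 CPM. BACH1, a repressor of the same elements and of HMOX1 in particular, was at 56.9 and 57.6 CPM against 11.7 and 12.9 CPM (-2.22 ± 0.0796). MAFF was higher and MAFK lower in SUM159, each by more than 2-fold. Of the 9 genes, the remaining 6 passed the test with differences under 2-fold.

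Other enzymes of foreign compound metabolism also lay mostly on the A549 side, with 15 of 25 tested members lower and 3 higher in SUM159 (median -1.52). ALDH1A1, a retinal dehydrogenase, stood at 3756 and 3721 CPM in A549 and 0.363 and 0 CPM in SUM159. CYP24A1, which degrades active vitamin D, was at 1396 and 1459 CPM against 0.59 and 0.272 CPM, and CYP1B1 at 129 and 131 CPM against 2.18 and 1.99 CPM. The members higher in SUM159 were CYP1A1 (0.0534 and 0.233 CPM against 2 and 2.36 CPM), AHRR (1.92 and 1.57 CPM against 8.26 and 8.57 CPM) and GSTA4.

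Antigen presentation and interferon-stimulated genes were higher in SUM159. All 41 members were tested, 32 were at least 2-fold higher and 2 lower, with a median of 2.14. Interferon-stimulated genes are switched on by a complex that contains STAT2 and IRF9 at response elements close to their starts. The interferon-stimulated response element (TTTC, any 2 bases, TTTC) was searched on both strands, overlapping matches included, in the 28 members with RefSeq windows. It was present in 22 of 36 windows (61.1%), against 3.57% of all windows. Of the 18 genes with a match 16 were at least 2-fold higher and 1 lower in SUM159, and of the 10 without a match 5 were higher and 1 lower. The 200 bases before the start of 7 members are shown because they hold that element (GRCh38.p14, 5′ to 3′ on the gene's strand, matches in capitals), 6 from genes higher in SUM159 and the last from OAS3, which was lower:
IFIT1 (chr10:89392423-89392622, plus strand): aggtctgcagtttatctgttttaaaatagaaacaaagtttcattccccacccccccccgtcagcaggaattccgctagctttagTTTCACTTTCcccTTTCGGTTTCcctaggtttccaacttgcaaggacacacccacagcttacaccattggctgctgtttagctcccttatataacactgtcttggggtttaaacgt
IFIT3 (chr10:89327797-89327996, plus strand): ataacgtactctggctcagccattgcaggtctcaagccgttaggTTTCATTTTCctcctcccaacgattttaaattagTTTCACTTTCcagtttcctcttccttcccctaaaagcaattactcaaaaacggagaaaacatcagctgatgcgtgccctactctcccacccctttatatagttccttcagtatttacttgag
ISG15 (chr1:1013297-1013496, plus strand): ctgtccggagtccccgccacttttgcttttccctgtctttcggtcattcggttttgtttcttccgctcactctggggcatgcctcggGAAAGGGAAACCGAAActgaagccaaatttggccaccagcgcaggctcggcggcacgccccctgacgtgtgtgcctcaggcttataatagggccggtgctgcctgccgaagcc
IFI6 (chr1:27672193-27672392, minus strand): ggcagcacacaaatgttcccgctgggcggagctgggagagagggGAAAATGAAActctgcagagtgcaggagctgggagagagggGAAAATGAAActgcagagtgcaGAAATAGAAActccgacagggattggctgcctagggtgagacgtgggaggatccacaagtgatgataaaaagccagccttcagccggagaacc
IFI27 (chr14:94110536-94110735, plus strand): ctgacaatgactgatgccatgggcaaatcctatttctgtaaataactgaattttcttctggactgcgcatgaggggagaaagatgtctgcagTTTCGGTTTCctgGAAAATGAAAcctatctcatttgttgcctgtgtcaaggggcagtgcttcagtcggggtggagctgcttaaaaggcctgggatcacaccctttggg
B2M (chr15:44711317-44711516, plus strand): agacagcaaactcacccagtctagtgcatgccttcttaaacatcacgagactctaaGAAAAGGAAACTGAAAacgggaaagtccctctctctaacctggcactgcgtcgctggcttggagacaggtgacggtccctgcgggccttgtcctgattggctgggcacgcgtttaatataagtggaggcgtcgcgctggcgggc
OAS3 (chr12:112938274-112938473, plus strand): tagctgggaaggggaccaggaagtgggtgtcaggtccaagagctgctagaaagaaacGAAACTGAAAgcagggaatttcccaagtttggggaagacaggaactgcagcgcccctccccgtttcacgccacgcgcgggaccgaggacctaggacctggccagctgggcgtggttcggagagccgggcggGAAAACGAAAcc
Among the genes with these elements, IFIT3 stood at 7.05 and 5.65 CPM in A549 and at 119 CPM in both SUM159 libraries (4.22 ± 0.0805). IFIT1, which like IFIT3 binds foreign RNA, was at 5.98 and 5.3 CPM against 71.4 and 68.2 CPM. ISG15, a ubiquitin-like modifier, was at 3.2 and 3.21 CPM against 20.3 and 22 CPM, and IFI27 at 0.64 and 0.583 CPM against 8.35 and 9.61 CPM. B2M, the light chain of MHC class I, was at 310 and 300 CPM against 714 and 689 CPM (1.20 ± 0.0463). The libraries of the lines did not overlap for these genes, which also holds for 87.4% of all genes.

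The class I heavy chain genes HLA-B and HLA-C were at 13.4 and 12.8 CPM and at 46.2 and 42.1 CPM in A549, and at 175 and 172 CPM and 152 and 150 CPM in SUM159. Their transactivator NLRC5 was at 12.3 and 13.3 CPM against 42.5 and 43.1 CPM. BST2, tetherin, was at 0.267 and 0.117 CPM against 66 and 62.8 CPM, and OASL at 0.694 and 0.758 CPM against 82.7 and 83.1 CPM. STING1, the adaptor of cytosolic DNA sensing, was at 1.23 and 1.46 CPM against 23.1 and 21.1 CPM, and the DNA sensor gene CGAS at 6.67 and 5.83 CPM against 22.2 and 21.8 CPM. The upstream factor STAT2 was not higher, at 39.4 and 39.5 CPM against 28 and 27 CPM. OAS1 and OAS3 went against the list, at 191 and 194 CPM and 241 and 247 CPM in A549 and at 3.04 and 3.35 CPM and 65.1 and 67.7 CPM in SUM159. IRF9 was under 1 CPM in all libraries and shares exons with another gene on its strand.

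Receptor tyrosine kinases differed in both directions. Of 28 tested members 8 were higher and 12 lower in SUM159 (median -0.22). PDGFRA, a platelet-derived growth factor receptor, had no count in A549 and 63.8 and 67.7 CPM in SUM159. ROS1, an orphan-type receptor kinase, stood at 0.32 and 0.175 CPM against 144 and 155 CPM. AXL was at 152 and 147 CPM against 477 and 496 CPM (1.70 ± 0.0409), together with its ligand gene GAS6 at 6.03 and 5.54 CPM against 45.1 and 45.9 CPM. On the A549 side ERBB3 was at 83.2 and 83.9 CPM against 0.544 and 0.227 CPM, FGFR4 at 58 and 55.7 CPM against 0.59 and 0.363 CPM and NTRK3 at 48.8 and 51.2 CPM against 0.136 and 0.0453 CPM. EGFR did not differ by the test, at 131 and 144 CPM in A549 and 134 and 153 CPM in SUM159 (0.06 ± 0.0557), and MET stood at 479 and 491 CPM against 365 and 399 CPM.

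Among growth factor ligands 12 of 26 tested were higher and 7 lower in SUM159 (median 0.53). The EGFR ligands TGFA, AREG and BTC were lower, at 43.4 and 40.7, 77.5 and 74.7, and 8.65 and 8.1 CPM in A549 against 5.26 and 5.53, 10.8 and 10.9, and 0.0454 and 0.0453 CPM in SUM159. HBEGF, another EGFR ligand, was higher, at 4.91 and 5.95 CPM against 19 and 19.7 CPM. HGF, the MET ligand, was at 10.7 and 9.15 CPM against 57.4 and 58.8 CPM. EFNB2, an ephrin, was at 16.6 and 15.6 CPM against 168 and 170 CPM, and PDGFC at 13.7 and 12.4 CPM against 74 and 71 CPM.

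Cytokines and chemokines were divided too, with 15 of 31 tested members higher and 10 lower (median 0.93), although the summed level was higher in A549 (1297 and 1303 CPM against 377 and 365 CPM). CXCL5, a neutrophil attractant, made up most of that sum, at 972 and 977 CPM in A549 with no count in SUM159. The related CXCL1 was at 50.7 and 54.6 CPM against 1.72 and 1.27 CPM, and LIF, an IL-6 family cytokine, at 83.9 and 86.1 CPM against 2.49 and 1.27 CPM. SUM159 had more CSF1, the macrophage growth factor (31 and 26.3 CPM against 182 and 179 CPM), more IL32 (0.107 and 0.291 CPM against 35.8 and 35.7 CPM) and more CCL5 (no count against 15.3 and 14.9 CPM). CXCL8 was at 6.46 and 4.72 CPM against 16 and 13.7 CPM.

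In the TGF-beta and BMP pathway 7 of 40 members were higher, a share near the 16.1% of all genes. Another 14 were lower, where 21.5% of all genes were (median 0.09). INHBB, an activin subunit, stood at 29.3 and 31 CPM in A549 and had no count in SUM159, and the receptor gene BMPR1B was at 35.6 and 34.1 CPM against 0.454 and 0.544 CPM. GDF15, a stress hormone, was at 21.6 and 19 CPM against 1.04 and 0.952 CPM. The ligand TGFB1 (92.9 and 88.9 CPM against 111 and 109 CPM) and the receptor TGFBR2 (351 and 354 CPM against 395 and 402 CPM) lay well within 2-fold. The signal carriers SMAD2 and SMAD3 were lower in SUM159, by 1.43 and 1.05 on the log2 scale in size, and SMAD4 was at 41.9 and 43.8 CPM against 43.4 and 45.3 CPM.

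Glucocorticoid targets were compared with the hydrocortisone of the SUM159 medium in view, from which the effect of the line cannot be told apart. All 22 members were tested, 13 were higher and 2 lower in SUM159, with a median of 1.84. FKBP5, a chaperone of the receptor and a standard target, stood at 87.5 and 85.8 CPM in A549 and 708 and 719 CPM in SUM159 (3.04 ± 0.0431). PER1, a clock gene, was at 13.6 and 13.1 CPM against 93.9 and 88.6 CPM, and KLF9 at 1.71 and 2.04 CPM against 64.8 and 67.2 CPM. ZBTB16 had no count in A549 and 19.9 CPM in both SUM159 libraries, at least 119-fold higher with 3 counts per library as the limit, and the metallothionein MT2A was at 26.3 and 25.2 CPM against 584 and 572 CPM. The receptor gene NR3C1 was the lower in SUM159, at 237 and 249 CPM against 126 and 137 CPM (-0.89 ± 0.0453). HSD11B1, the enzyme that makes active cortisol, had no count in A549 and 11.1 and 10.1 CPM in SUM159. PDK4, also a target, went against the list, at 76.1 and 80.4 CPM against 0.408 and 0.363 CPM.

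Of 20 targets and members of the YAP and TEAD system 9 were higher and 1 lower in SUM159 (median 0.86). CCN1 and CCN2, secreted matricellular targets, stood at 16.4 and 14.6 CPM and at 12.5 and 11.2 CPM in A549 and at 263 and 258 CPM and 164 and 156 CPM in SUM159. F3, tissue factor, was at 9.34 and 9.15 CPM against 427 and 406 CPM (5.49 ± 0.0617). YAP1 itself was at 144 and 143 CPM against 198 and 206 CPM, and its paralogue WWTR1 at 247 and 246 CPM against 91 and 93.7 CPM. CCN1, CCN2 and F3 differed by more than either coactivator, but this did not hold for the list as a whole. Members under 2-fold included AMOTL2 (0.17), AJUBA (0.72), NT5E (0.78), MYOF (-0.34) and AMOTL1 (-0.83, all on the log2 scale). The TEAD motif GGAATG, on either strand, was in 8 of 17 windows of the 14 members with windows (47.1%), against 14% of all windows, and 5 of 8 members with it and 2 of 6 without it were higher.

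HOX genes, which record the position of origin along the body axis, differed by cluster. Of 39 genes 28 were tested, 18 were lower and 4 higher in SUM159 (median -1.89). All 8 genes from HOXB2 to HOXB9 were lower, as was HOXB13 itself. HOXB7 stood at 18.2 and 16.5 CPM in A549 and 0.907 and 1.04 CPM in SUM159, HOXB6 at 12.1 and 10.7 CPM against 0.0907 and 0.181 CPM, and HOXB8 at 7.69 and 8.34 CPM with no count in SUM159. In the C cluster the distal genes were higher in SUM159. HOXC10 was at 0.961 and 0.933 CPM against 35.8 and 36.2 CPM (5.24 ± 0.126), HOXC11 at 0.747 and 0.175 CPM against 6.26 and 5.35 CPM and HOXC13 at 4.22 and 3.26 CPM against 24.3 and 24.1 CPM. HOXA4 was the other member higher, at 0.267 and 0.233 CPM against 0.635 and 0.544 CPM. HOXC4, HOXC6, HOXC8 and HOXC9 lay within 2-fold. In the D cluster HOXD8 alone was tested, and the others stood at or under 0.16 CPM. Several neighbours in these clusters share exons, so counts could be divided among them.

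**Figure D4:**
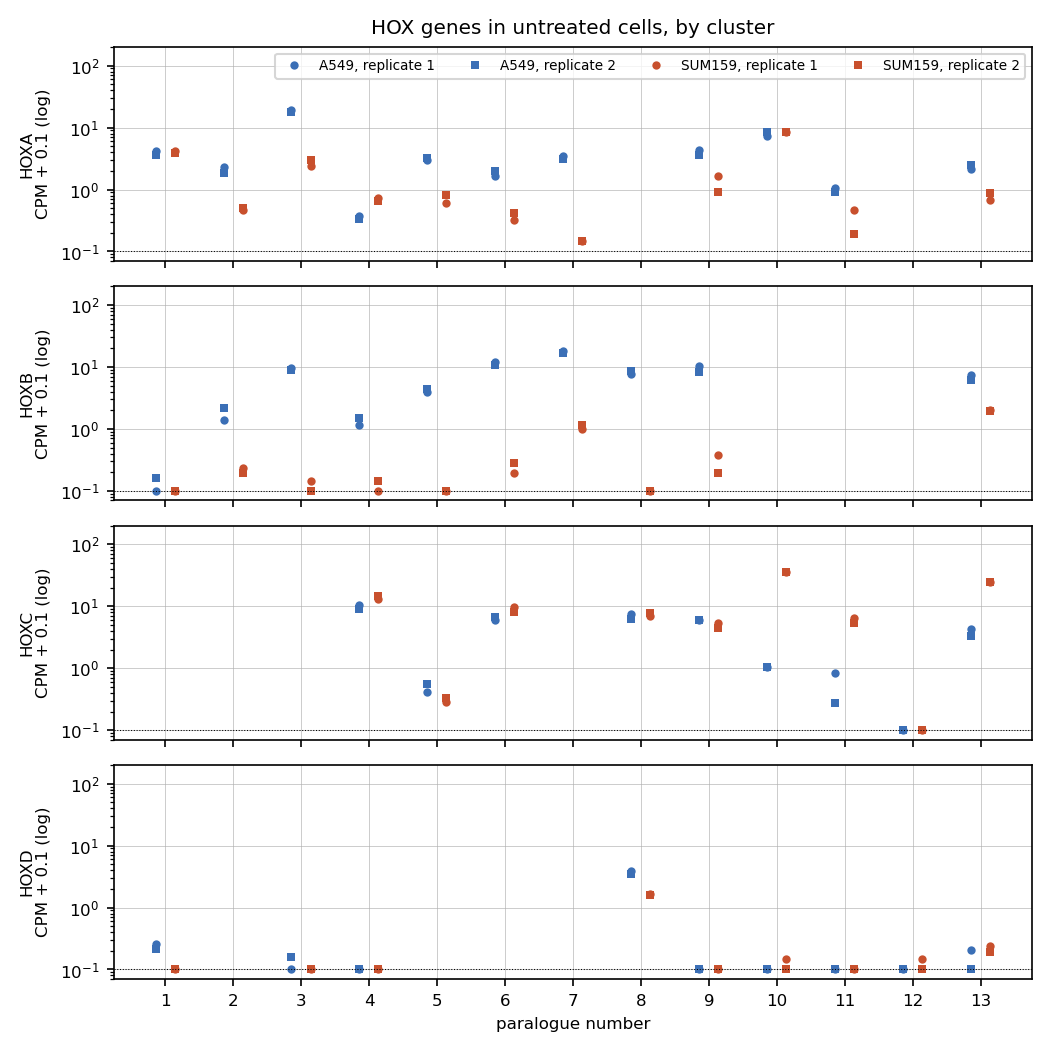
CPM plus 0.1 (log axis) of the 39 HOX genes by paralogue number, 1 panel per cluster, blue A549 and orange SUM159, circles replicate 1 and squares replicate 2, with the dotted line at a CPM of 0. HOXB2 to HOXB9 lie between 1.07 and 18.2 CPM in A549 and at or under 1.04 CPM in SUM159, and HOXC10, HOXC11 and HOXC13 are higher in SUM159.

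Genes of the cell cycle itself were close to equal. Of 22 proliferation genes 0 were at least 2-fold different, although 18 passed the test with smaller differences, and the median was -0.03, that of all genes. MKI67 stood at 567 and 676 CPM in A549 and 455 and 508 CPM in SUM159, TOP2A at 776 and 835 CPM against 775 and 825 CPM, and MCM3, part of the replicative helicase, at 217 and 219 CPM against 363 and 371 CPM (0.75 ± 0.038).

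The targets of the study's drugs were present in both lines. CDK4 was at 189 CPM in both A549 libraries and 185 and 200 CPM in SUM159, CDK6 at 76.8 and 80.8 CPM against 109 and 123 CPM, CDK2 at 96.2 and 96 CPM against 96.6 and 90.1 CPM and CCND1, cyclin D1, at 443 and 431 CPM against 443 and 432 CPM. RBM39, which indisulam removes, was at 178 and 184 CPM against 216 and 212 CPM (0.24 ± 0.0398), and DCAF15, the ligase receptor it uses, at 20.4 and 17.3 CPM against 28.3 and 26.9 CPM. Subunits of the CDK-activating kinase were higher in SUM159 by just under 2-fold, CCNH at 27.9 and 24.5 CPM against 51.3 and 51 CPM (0.96 ± 0.0703) and CDK7 at 33.7 and 33 CPM against 61.4 and 64.8 CPM (0.92 ± 0.0566), while MNAT1, the assembly subunit, stood at 23.9 and 26.1 CPM against 23.7 and 24.9 CPM. The inhibitor gene CDKN1B was at 44.5 and 40.8 CPM against 15.3 and 14.8 CPM, and cyclin E2, CCNE2, at 13.1 and 11.8 CPM against 27 and 27.5 CPM. Of the 26 genes in this list 2 were higher and 4 lower. Among 28 p53 targets 2 were higher and 5 lower (median -0.38). In both lists the shares higher and lower were under the 16.1% and 21.5% of all genes. The p53 targets included CDKN1A at 38.8 and 33.9 CPM against 38.8 and 37.3 CPM and MDM2 at 153 and 157 CPM against 76.7 and 81.7 CPM.

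CDKN2A, which encodes the CDK4 and CDK6 inhibitor p16, was low in both lines, at 2.56 and 1.4 CPM in A549 and at 1 count in each SUM159 library. By Western blot the paper reports an increase of p16 protein in SUM159 after days of drug treatment, and it describes A549 as p16 null. That treatment was longer than the 16 h of the treated libraries and used other doses, and the RNA values above are from untreated cells. The RNA and the blot are therefore not a like comparison. In the SUM159 libraries of all treatments CDKN2A reached at most 1 count. How its RNA relates to the protein was not tested. The neighbours of CDKN2A were examined after its counts were seen. From MLLT3 to DMRTA1 on chromosome 9 (20341669 to 22455740, GRCh38) lay 10 named genes with enough counts. Of these, 8 had at most 1 count in each untreated SUM159 library, so they had enough counts only through A549. Both ends of the stretch are themselves genes with no count in SUM159. The 8 of 10 therefore depends on where the ends were put and is a description, not a test. MLLT3, a subunit of the super elongation complex, stood at 95.3 and 89.9 CPM in A549 and had no count in SUM159, and MTAP, a methionine salvage enzyme, was at 33 and 33.2 CPM in A549 against 0 and 1 count. HACD4, MIR31HG, IFNE, CDKN2B and DMRTA1 were likewise at 0 in SUM159 and between 0.758 and 6.64 CPM in A549. FOCAD and KLHL9, which lie within this stretch, were at 71.1 and 72.7 CPM and at 78.4 and 79.9 CPM in A549 and kept 78 and 72 counts and 64 and 59 counts in SUM159. In the 8 SUM159 libraries of all treatments, the 8 low genes reached at most 5 counts. On the far side of the stretch ELAVL2 was the reverse, with 95 and 91 counts in SUM159 and 0.0534 and 0 CPM in A549. Of the genes flanking the stretch, PLIN2 had 6 and 2 counts in SUM159, and RRAGA, DENND4C, ACER2 and CAAP1 were 4.61-fold, 4.1-fold, 3.46-fold and 2.38-fold lower there. The DNA of these cultures was not measured here.

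**Figure D5:**
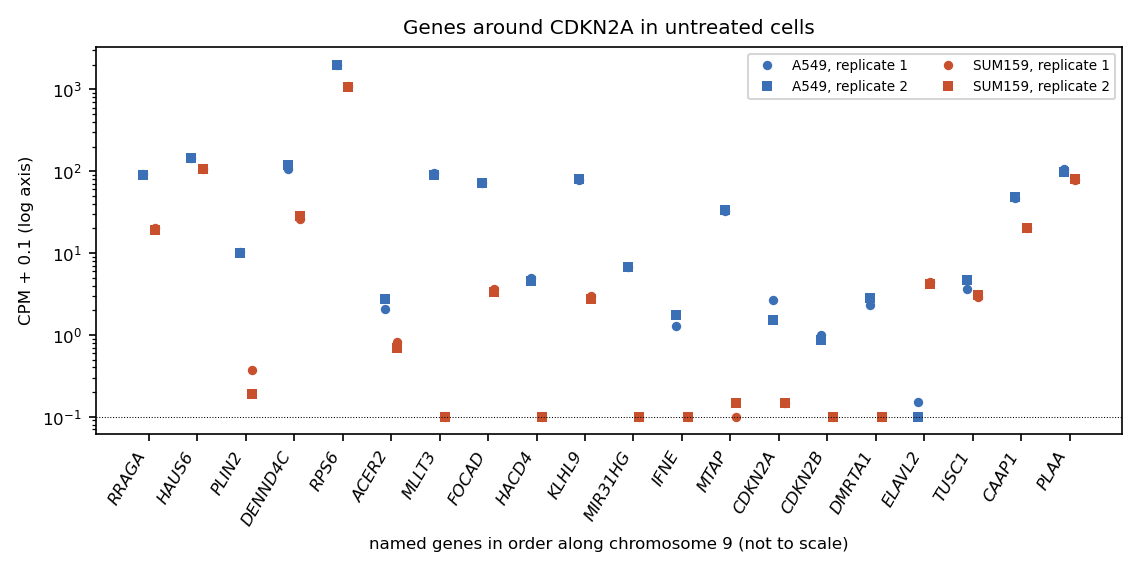
CPM plus 0.1 (log axis) of the named genes around CDKN2A in their order along chromosome 9, not to scale, blue A549 and orange SUM159, circles replicate 1 and squares replicate 2, with the dotted line at a CPM of 0. From MLLT3 to DMRTA1 the SUM159 points lie at or near the dotted line except for FOCAD and KLHL9, while RPS6 and HAUS6 on one side and CAAP1 and PLAA on the other were present in both lines, CAAP1 at a lower level in SUM159.

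Genes of serine and amino acid supply were on the A549 side or alike, with 8 of 26 lower, 0 higher and a median of -0.59. Of all genes 21.5% were lower and 16.1% higher. The amino acid transporter SLC7A5 stood at 1293 and 1227 CPM in A549 and 333 and 331 CPM in SUM159, and its partner SLC3A2 at 418 and 407 CPM against 120 and 125 CPM. ALDH1L2, a mitochondrial folate enzyme, was at 30.7 and 36.7 CPM against 0.272 and 0.408 CPM, and PHGDH, the entry enzyme of serine synthesis, at 83.7 and 75.5 CPM against 30.8 and 31.4 CPM. ATF4 was at 371 and 355 CPM against 243 and 251 CPM (-0.56 ± 0.04). ASNS was under 2 CPM in all libraries and shares exons with another gene.

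A further group of genes was restricted to a line, defined as at most 3 counts in each library of the other and at least 10 CPM in each of its own. By this rule 84 genes were restricted to SUM159 and 156 to A549, and as the rule fixed their direction no test is drawn from it. The most abundant in SUM159 were COL8A1 (465 and 473 CPM), the actin bundler LCP1 (355 and 364 CPM), the adhesion receptor ADGRF5 (330 and 340 CPM), the pentraxin NPTX2 (318 and 320 CPM, at least 1906-fold above A549 with 3 counts per library as the limit) and the hair keratin KRT75 (257 and 260 CPM). They were followed by SULT1B1, ENG, CADM3, ADAMTS12 and LINC00958, between 96.6 and 185 CPM. The most abundant in A549 were CPLX2, a complexin of synaptic vesicle release (1782 and 1697 CPM), CEACAM6, CXCL5 (at least 7162-fold above SUM159), GPX2, TM4SF4 (644 and 647 CPM), MUC5B, the 3 fibrinogen chains and the ubiquitin hydrolase UCHL1 (441 and 445 CPM).

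The CpG content of promoters, which the rule did not use, was described for the restricted genes with a RefSeq window, 52 of 84 and 114 of 156. The CpG ratio is observed over expected CpG in the 300-base window, and the highest value was taken for a gene with several windows. The number of windows per gene was not adjusted for. The ratio had a median of 0.59 in those restricted to SUM159 and 0.604 in those restricted to A549, against 0.855 in 11860 tested genes with a window. The ratio was under 0.6 in 51.9% and 49.1% of the restricted genes, against 16.5% of all tested and 5.24% of the 6620 genes above 10 CPM in all 4 libraries.

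Position along the genome also divided the genes. Relative to all genes, the median log2 difference was lowest on chromosome 12 (-0.49 over 982 genes) and chromosome 15 (-0.43 over 591 genes) and highest on chromosome 18 (0.48 over 272 genes), chromosome 6 (0.36 over 905 genes) and chromosome 4 (0.35 over 654 genes). Genes of a chromosome are not independent replicates, and these medians are a description. Direction could also change within a chromosome. Among genes with at least 10 CPM in all 4 libraries, the median on chromosome 15 was 0.50 from base 40000001 to 50000000. From base 80000001 to 90000000 of the same chromosome it was -0.80.

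The line difference was then read in the treated cells, which share no library with the untreated ones. Of the 2730 genes higher in untreated SUM159, 2538 (93%) were called higher with palbociclib, 2448 (89.7%) with indisulam and 2475 (90.7%) with the combination, where 19.1%, 17.5% and 20.8% of all genes were called higher. These were 78.3%, 82.1% and 70.2% of the genes called higher under each treatment. Of the 3648 lower, 3107 (85.2%), 3078 (84.4%) and 2845 (78%) were called lower again, against 20.1%, 20.6% and 19.2% of all genes, and made up 90.9%, 87.9% and 87% of the treated lists. The 24 largest differences kept their direction and at least 2-fold size under all 3 treatments, the smallest being 5.29 on the log2 scale with the combination. Of the 84 genes restricted to SUM159, 68, 70 and 66 still had at most 3 counts in each A549 library with palbociclib, indisulam and the combination, and 81, 74 and 79 kept at least 10 CPM in SUM159. Of the 156 restricted to A549, 116, 122 and 112 still had at most 3 counts in each SUM159 library, and 150, 133 and 137 kept 10 CPM in A549. None of them reached 1 CPM in a library of the other line. Single members kept their direction while the size moved. ALDH3A1 was at -11.96 untreated and at -11.63, -11.08 and -10.54 with palbociclib, indisulam and the combination, and FKBP5 at 3.04 untreated and at 3.54, 3.41 and 3.82. IFIT3 was at 4.22 untreated and at 3.82, 2.94 and 2.68. The interaction of line and treatment passed the test, at an adjusted p under 0.05, for 12.8% of genes with palbociclib, 15% with indisulam and 31.1% with the combination, and for 1.52%, 1.73% and 6.34% with at least a 2-fold change of the line difference as well. Without the 2-fold condition, 79.6%, 77.9% and 79.5% of genes differed between the lines under the 3 treatments.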

How the data were processed

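Poly(A) RNA of 16 libraries was sequenced by the authors as paired reads. The authors deposited raw read counts per Ensembl gene, separately for each library. According to the study's methods and the submitters' processing notes, reads were trimmed with SeqPurge, aligned to GRCh38 with HISAT2 2.2.1 and counted with HTSeq. The strand setting and the annotation release are not given in the sources used here. Reads in exons shared by genes are set apart by such counting, which could lower genes such as SRXN1, IRF9 and ASNS. How many of their reads were set apart was not measured.

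Of 58676 gene identifiers 58207 matched GENCODE, which gave names and chromosomes, and rows that name no gene were left out. Counts were fitted in R 4.3.3 with edgeR 4.0.16 (filterByExpr, TMM, quasi-likelihood F-test) over all 16 libraries with 8 group means and 8 residual degrees of freedom, and p-values were Benjamini-Hochberg adjusted over 17764 genes. A call needs an adjusted p under 0.05. The script was tested on simulated data. DESeq2 1.42.0, other scalings and filters, a replicate block and the omission of each library were tried as alternatives.

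Genes named are the 12 largest differences in each direction, the 10 most abundant restricted genes per line, and members of 25 lists (671 genes). The largest differences were taken among called genes with at least 1 CPM in all 4 libraries and 10 CPM in the higher line. The libraries of the lines also had to lie apart for these genes. The comparison, its members and the lists were chosen with earlier results of these data known. Fold bounds take 3 counts per library for a line at 0. Replicate numbers did not pair the lines. Promoter windows came from the RefSeq table for GRCh38.p14, and members without a window were left out of the motif counts. The limit of 3 counts covers counting error only, while standard errors and p-values rest on the spread between libraries. A few genes counted in the lists and among the largest differences are not reported here by name.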

Additional observations from a re-analysis of the deposited data

Results flagged for a closer look

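Of the genes called at least 2-fold different between the untreated lines, 21 gene and treatment pairs, in 19 genes, were called at least 2-fold in the opposite direction under a treatment (2 with palbociclib, 1 with indisulam and 18 with the combination). An interaction of line and treatment that passed edgeR's quasi-likelihood test was a condition of this selection, so its p-values add no further support. The 7 pairs with at least 2 CPM in the higher line in both states are given here.

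PIF1, a DNA helicase, had mean levels of 24.9 CPM in untreated A549 and 12.1 CPM in untreated SUM159, and of 2.83 and 8.14 CPM with palbociclib. The line difference moved from -1.04 to 1.55 on the log2 scale, an interaction of 2.59 (adjusted p = 9.35e-09 by edgeR). With the combination PIF1 stood at 2.85 CPM in A549 and 6.1 CPM in SUM159, an interaction of 2.15 (adjusted p = 1.91e-07 by edgeR).

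The other pairs were found with the combination. MLXIPL, a glucose-responsive transcription factor, went from -2.36 to 1.06 on the log2 scale, an interaction of 3.42. TCF7, a Wnt pathway factor, went from -1.30 to 1.11 (interaction 2.41), and MUC3A, a membrane mucin, from -1.67 to 1.21 (interaction 2.87). VIPR1, a peptide hormone receptor, was higher after treatment in both lines, at 8.11 and 15.6 CPM in A549 and 3.9 and 38.1 CPM in SUM159, with an interaction of 2.35. The pseudogene FAM86B3P had an interaction of 2.67, and reads of its near-identical copies could be divided among them. No library group of 4 or more was available for a test of single libraries.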

How the results depend on the processing

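Of the comparisons of a summary with an alternative, 353 stayed within 1.5 times or within the replicate spread and 25 did not. These followed from stricter or looser limits. With at least 10 counts required in every untreated library, 12068 genes were tested, 1220 were at least 2-fold higher and 1736 lower, since genes near 0 in 1 line then drop out. The same limit left 12 junction genes, 4 epithelial factors, 2 keratins, 3 lung, 3 breast, 5 hepatocyte, 6 metabolism, 2 receptor kinase, 9 TGF-beta, 7 HOX and 1 cyclin and kinase genes lower, and 14 mesenchymal, 15 matrix, 7 ligand, 2 cytokine and 1 leukocyte genes higher, and moved the medians of chromosomes 12, 6 and 18 to -0.51, 0.40 and 0.41. Restricted genes numbered 143 (SUM159) and 241 (A549) with up to 10 counts in the other line, and 142 and 249 with at least 5 CPM in the own line.

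Total-count scaling shifted the median of all genes by 0.10 and put 54.2% of calls on the SUM159 side against 49.4%. Under it PLK1 turned from -0.09 to 0.01 (adjusted p = 0.868 by edgeR). Leaving out 1 library leaves a line with 1 library, assumed to vary like the other groups, and gave 2642 to 2678 genes at least 2-fold higher and 3501 to 3539 lower. The replicate numbers did not pair the lines (correlation -0.000231), and a replicate block gave 2731 and 3636. Among single named genes and list members, 181 that passed at an adjusted p under 0.05, whatever their size, did not pass a test against a 2-fold difference. For 450 the result was unchanged. The 181 include genes with differences under 2-fold, which such a test is built to drop, so they are not a count of lost 2-fold calls. At this depth, differences among genes under about 0.175 CPM in both lines were not detectable.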
